A study of Mus musculus with 9 samples.

Results

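The genes described here make, sense, move and export cholesterol. The 31 genes were chosen by name: 21 enzymes of cholesterol synthesis, 4 genes of SREBP control, 4 genes of uptake and intracellular transport, and 2 export genes that are targets of the liver X receptor (LXR). They are covered by 63 of the 41174 probes of the array, which carries 27962 gene names in all. RNA came from mammary gland number 4 of individual dams on lactation day 2 and was hybridized to one-colour Agilent whole mouse genome arrays, 1 array for each dam. WT dams (n = 4) were wild type and hNAG-1 dams (n = 5) carried a transgene for human NAG-1 (also known as GDF15), a secreted member of the TGF-beta superfamily, made to be expressed ubiquitously. The strain background of both genotypes is written C57BL/7 in the labels, and the methods place the collection after the fourth litter. Since expression is not limited to the gland, the gland is not the only source of the protein, and the labels do not say which of the founder lines of the study the arrays hold. The gland was taken whole, so fewer cells of a type and less RNA per cell cannot be told apart.

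Cholesterol is built from acetyl-CoA through mevalonate, farnesyl pyrophosphate, squalene and lanosterol. When sterols in the endoplasmic reticulum are low, SCAP escorts the SREBP-2 precursor to the Golgi, where it is cut, and the freed fragment turns on most genes of the pathway, while INSIG proteins hold SCAP back when sterols are high. Oxysterols made from excess cholesterol activate LXR, which turns on the exporters ABCA1 and ABCG1. In the lactating gland, the secretory epithelium makes part of the cholesterol of milk and takes up the rest from plasma.

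The scanner intensity of each probe was scaled so that all arrays had the same 75th percentile, and a gene was represented by its brightest probe. Those 31 probes were well above background on all 9 arrays and none was saturated. The arrays lay on 3 slides. Slide 1 gave WT 1, slide 2 gave hNAG-1 1 to 4, and slide 3 gave WT 2 to 4 and hNAG-1 5, so genotype and slide can be told apart only within slide 3. Before scaling, the 75th percentile ran from 533 to 1185. The array of WT 2 stood apart in cell type markers. The 7 lymphocyte markers averaged 3.20 above their mean over the arrays on the log2 scale in WT 2, against -1.40 to 1.03 in the other 8, and the 5 markers of secretory luminal epithelium averaged -0.68 in WT 2. Keratin and milk protein markers were well above background on all arrays.

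Most enzymes of cholesterol synthesis had higher mean levels in hNAG-1 glands, but no single gene passed the adjusted test. Of the 21 synthesis genes, 20 had a higher mean in hNAG-1 and 1 (Ebp) a lower one, with a median log2 fold change of 0.56 and a range of -0.13 to 0.89. Over all probes the median was -0.02 and 47.9% were higher in hNAG-1. None of the 31 genes had a Benjamini-Hochberg adjusted p under 0.05 in limma (lowest 0.661), where 0.00243% of all probes did. An unadjusted p under 0.05 was reached by 3 genes, Mvk, Fdft1 and Tm7sf2, where 5.60% of all probes reached it, and all 3 were higher in hNAG-1, where 1.15% of all probes were. That last share depended on the scaling. It was 1.35% with normexp background correction and 3.66% with quantile normalization, each with the same 3 members, 6.48% with median scaling, with 4 members, and 0.143% without scaling, with 0 members, where 5.02% of all probes passed in either direction. With the thresholds named in the methods added (a fold of 1.5 and an intensity of 65), Fdft1 and Tm7sf2 remained, where 2.28% of all probes did. By the test that the methods name, which does not moderate variances, the unadjusted p was under 0.05 for Mvk and Fdft1 (4.82% of all probes) and not for Tm7sf2, and the same held in limma with slide as a random block (3.58% of all probes). The genotypes did not overlap for 1 gene, Mvk, where 1.35% of all probes did not overlap.

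The size of the difference depended on single mice. Without WT 2 the median of the synthesis genes was 0.26 and no member had an unadjusted p under 0.05, where 4.33% of all probes did. Without hNAG-1 2 it was 0.35 with 1 such gene (Mvk), where 2.82% of all probes passed. Without both, a choice made after seeing the data, it was 0.10 with none, where 2.41% passed. Without hNAG-1 5 it was 0.68 with 5 such genes of 31, all higher in hNAG-1. In either direction 14.4% of all probes passed, a share close to that of the members. Of those probes, 8.09% were higher in hNAG-1. Without WT 3 (3.95% of all probes in either direction) or hNAG-1 4 (3.82%), 1 member passed, which is close to the share of all probes. That member was higher in hNAG-1 each time, as were 20.9% and 26.7% of the probes that passed. With slide as a block, the estimate is hNAG-1 5 minus the mean of WT 2 to 4. The median was then 0.12, with 15 of 21 genes higher and 6 lower. The median of all probes was 0.19 and 68.8% of them were higher, a share close to that of the synthesis genes. WT 2, low for most synthesis genes, is part of that WT mean. As a mean over the 21 genes of the log2 deviation from each gene's mean, hNAG-1 5 stood at -0.22. WT 2 to 4 stood at -0.94, -0.18 and 0.09, so hNAG-1 5 was above WT 2 alone.

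**Figure D1:**
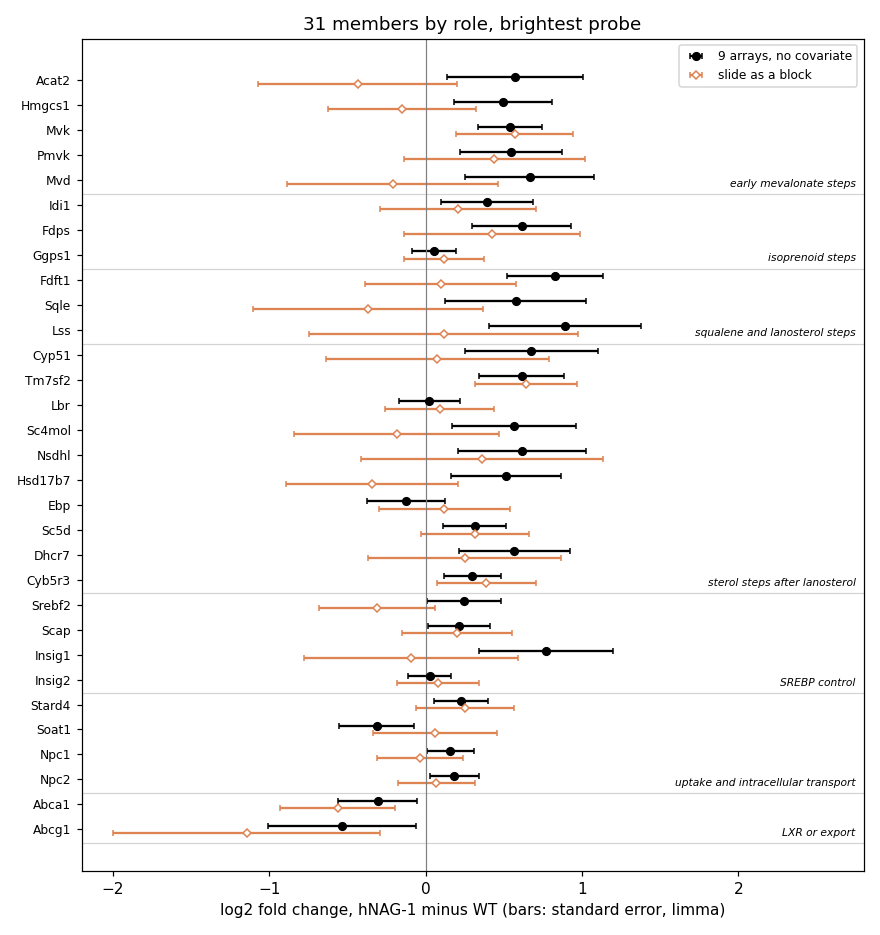
Log2 fold change of each of the 31 genes (hNAG-1 minus WT, brightest probe), grouped by role, with bars for the limma standard error. Filled circles use all 9 arrays without a covariate and open diamonds have slide as a block. Circles of 20 of the 21 synthesis genes lie right of 0, and diamonds of 15 do.

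A pair of mice stood at the ends for most synthesis genes. WT 2 was the lowest of the 9 arrays for 19 of the 21 genes, where it was the lowest for 29.6% of all probes, and hNAG-1 2 was the highest for 16, where it was the highest for 10.7% of all probes. Lbr, with WT 4 lowest and hNAG-1 1 highest, and Ebp, with hNAG-1 1 lowest and WT 1 highest, were ordered otherwise. WT 2 was also the lowest array for all 12 luminal and milk protein markers. As a mean over the 21 genes of the log2 deviation from each gene's mean, WT 1 to 4 stood at -0.05, -0.94, -0.18 and 0.09, and hNAG-1 1 to 5 at 0.13, 0.84, 0.02, 0.32 and -0.22. The other 7 mice overlapped, with hNAG-1 5 below 3 of the 4 WT mice and WT 4 above 2 of the 5 hNAG-1 mice. hNAG-1 2 exceeded every WT mouse in 19 genes (25.9% of all probes), hNAG-1 4 in 13 (22.5%), hNAG-1 1 in 8 (17.2%), hNAG-1 3 in 6 (11.5%) and hNAG-1 5 in 2 (37.5%). On slide 3, the only slide with both genotypes, hNAG-1 5 lay within the range of WT 2 to 4 for 17 of the 21 genes, where it did for 42.4% of all probes. WT 2 set the lower end of that range for the 19 genes in which it was the lowest array. The share of features well above background moved with these values. Features well above background were most frequent in WT 2 (76.1%), which also had the highest 75th percentile, and least frequent in hNAG-1 4 (59.8%) and hNAG-1 2 (60.3%), and the 4 WT arrays averaged 71.6% (SD 3.1) against 65.5% (SD 5.9) for the 5 hNAG-1 arrays. The part of that share in the differences was not tested.

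**Figure D2:**
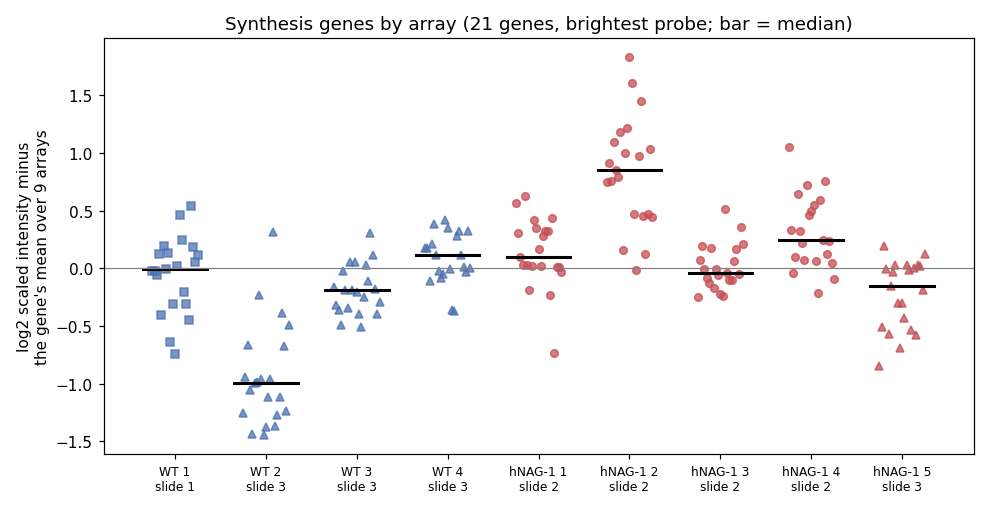
Log2 scaled intensity of the 21 synthesis genes in each array, minus each gene's mean over the 9 arrays. Each point is a gene, the bar is the median, blue is WT, red is hNAG-1, and squares, circles and triangles are slides 1, 2 and 3. WT 2 lies lowest and hNAG-1 2 highest, and the other 7 arrays overlap.

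Among the early mevalonate enzymes, all 5 means were higher in hNAG-1, by 0.50 to 0.66 on the log2 scale. Mvk encodes mevalonate kinase, which phosphorylates mevalonate. Its probe lies at chr5:113674161-113674220 of mm7, the build of the array files. Its scaled intensity was 619, 407, 502 and 598 in WT 1 to 4 and 692, 1091, 737, 626 and 736 in hNAG-1 1 to 5. Every hNAG-1 mouse was above every WT mouse, though hNAG-1 4 and WT 1 were close. The mean log2 fold change was 0.54 ± 0.20 (SE), with an unadjusted p of 0.0266 and an adjusted p of 0.661 in limma, and the two-sided exact permutation p was 0.0159, where the smallest p that splits of these arrays allow is 0.00794. With slide as a block it was 0.57 ± 0.37. The second Mvk probe, well above background on all 9 arrays, gave 0.55 ± 0.25 with an unadjusted p of 0.0567 in limma, and there the genotypes overlapped, with 3 of the 5 hNAG-1 mice above every WT mouse.

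The other 4 early enzymes had wide errors with slide as a block, where the hNAG-1 side is 1 mouse, and these do not separate them from Mvk. Hmgcs1 encodes HMG-CoA synthase 1, which makes HMG-CoA, and differed by 0.50 ± 0.31, and by -0.15 ± 0.48 with slide as a block. A much dimmer Hmgcs1 probe, well above background on 4 WT and 5 hNAG-1 arrays, gave 0.58 ± 0.32, and 1.27 ± 0.53 with the block. Acat2, the cytosolic thiolase that joins acetyl-CoA units, differed by 0.57 ± 0.44 and by -0.43 ± 0.64 with the block. Mvd, the decarboxylase that yields isopentenyl pyrophosphate, differed by 0.66 ± 0.41 and by -0.21 ± 0.68 with the block. Pmvk, phosphomevalonate kinase, differed by 0.55 ± 0.33 and by 0.44 ± 0.58 with the block.

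The isoprenoid steps and the squalene and lanosterol steps each gave 3 higher means, with medians of 0.39 and 0.83, and of 0.21 and 0.10 with slide as a block. Fdps, farnesyl pyrophosphate synthase, was higher by 0.61 ± 0.31, Idi1, an isopentenyl pyrophosphate isomerase, by 0.39 ± 0.29, and Ggps1, which leads away from sterols to geranylgeranyl pyrophosphate, by 0.05 ± 0.14. Fdft1 encodes squalene synthase, the first enzyme committed to sterols. In WT 1 to 4 the scaled intensity of Fdft1 was 1924, 1535, 2635 and 2885, and in hNAG-1 1 to 5 it was 3993, 6004, 2975, 4954 and 2426. The 4 hNAG-1 mice of slide 2 were all above WT, whereas hNAG-1 5 lay between WT 1 and WT 3. The log2 fold change was 0.83 ± 0.30 (SE), with an unadjusted p of 0.0232 and an adjusted p of 0.661 in limma, an exact permutation p of 0.0635, and 0.10 ± 0.48 with slide as a block. A second Fdft1 probe, well above background on 0 arrays, gave -0.37.

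Lss encodes lanosterol synthase, which closes the sterol rings, and had the largest difference of the 31 genes, 0.89 ± 0.49 (SE), an adjusted p of 0.661 in limma. Its scaled intensity was 764, 491, 1104 and 1622 in WT 1 to 4 and 1437, 4552, 1091, 1797 and 1038 in hNAG-1 1 to 5. One mouse, hNAG-1 2, stood far above the rest, and 2 of the 5 hNAG-1 mice were above every WT mouse. Without hNAG-1 2 the log2 fold change was 0.53, and with slide as a block it was 0.12. Sqle, squalene epoxidase, which adds the oxygen before ring closure, differed by 0.58 ± 0.45 and by -0.37 with the block.

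Of the 10 genes that act after lanosterol, 9 had higher means in hNAG-1. Tm7sf2 encodes a sterol C14 reductase. Its probe lies at chr19:5957688-5957747 of mm7. Its scaled intensity was 12525, 4675, 6411 and 7104 in WT 1 to 4 and 11055, 12629, 13026, 9498 and 9314 in hNAG-1 1 to 5. WT 1, alone on its slide, was within the hNAG-1 range and the other 3 WT mice were below it. The log2 fold change was 0.61 ± 0.27 (SE), with an unadjusted p of 0.0489 and an adjusted p of 0.661 in limma and an exact permutation p of 0.0635. Blocking by slide gave 0.64 ± 0.32, and leaving out WT 2 gave 0.41. The unadjusted p was 0.0650 in limma with slide as a random block, and it was also above 0.05 by the test that the methods name. Lbr, the lamin B receptor, which has the same reductase activity, differed by 0.02 ± 0.19.

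Ebp encodes the sterol isomerase that shifts the ring double bond, and was the 1 synthesis gene with a lower mean, by -0.13 ± 0.25 (SE), an adjusted p of 0.872 in limma. Intensities of Ebp were 100169, 52506, 74696 and 69525 in WT 1 to 4 and 41271, 75070.1, 77317, 75224 and 70391 in hNAG-1 1 to 5. The genotypes overlapped, and hNAG-1 1 was the lowest of all. Without hNAG-1 1 the log2 fold change was 0.04, without WT 1 it was 0.03, and with slide as a block it was 0.12.

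The other enzymes after lanosterol were Cyp51 (lanosterol demethylase, 0.68), Nsdhl (a sterol dehydrogenase, 0.62), Dhcr7 (which makes cholesterol from its last precursor, 0.57), Sc4mol (a sterol methyl oxidase, 0.56), Hsd17b7 (a ketosteroid reductase, 0.51), Sc5d (a sterol desaturase, 0.31) and Cyb5r3 (a cytochrome b5 reductase, 0.30). With slide as a block, Sc4mol and Hsd17b7 differed by -0.19 and -0.34, and the other 5 by 0.07 to 0.39. Among the 32 other probes, 2 reached an unadjusted p under 0.05 in limma, a share close to the 5.60% of all probes in either direction. Both were higher in hNAG-1, where 1.15% of all probes were. Neither passed without WT 2 (p of 0.141 and 0.0511 in limma). They were a Sc5d probe (0.65 ± 0.28, p of 0.0487, and -0.0731 with slide as a block) and a Cyb5r3 probe (0.56 ± 0.23, p of 0.0355, and 0.39 with the block), and both adjusted p were 0.661. Beside the brightest ones, 18 other probes of 13 synthesis genes were well above background on all 9 arrays, and all 18 had a higher mean in hNAG-1, by 0.0177 to 0.91, although probes of a gene measure the same RNA samples and are not replicates.

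**Figure D3:**
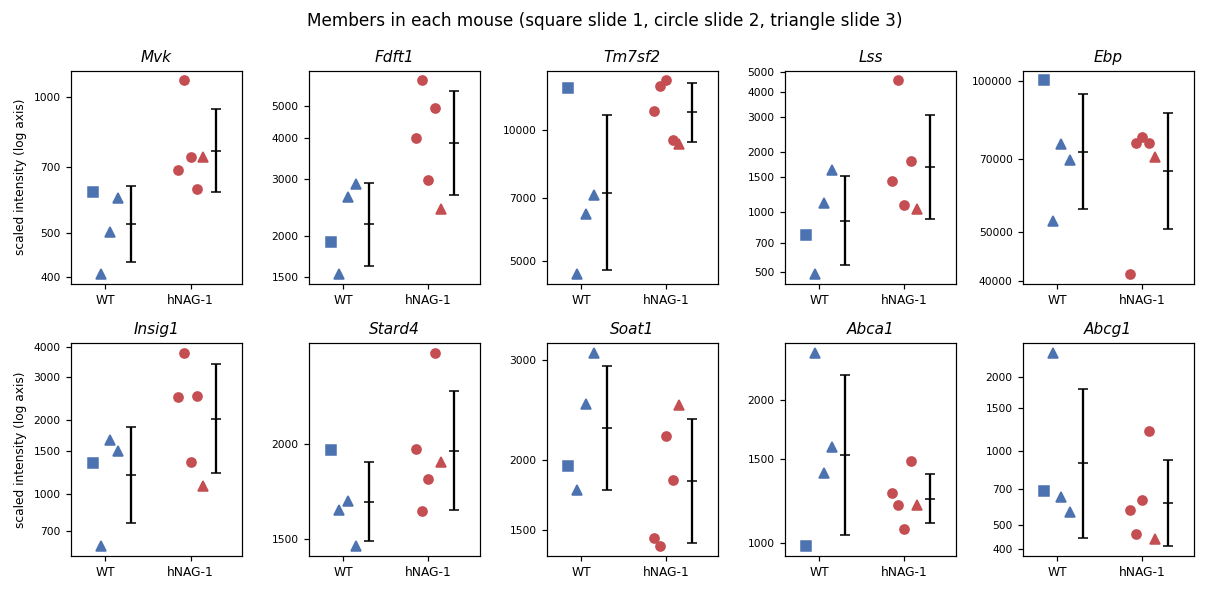
Scaled intensity (log axis) of 10 genes in each mouse, with blue for WT and red for hNAG-1, and squares, circles and triangles for slides 1, 2 and 3. The bar beside each group is the mean and SD of the log2 values. The genotypes do not overlap for Mvk and overlap for the other 9 genes.

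Because most synthesis genes are known targets of SREBP, promoters of the members were searched for a pair of motifs on both strands. TCACNCCAC is the core of a sterol regulatory element, to which SREBP binds, and CCAAT is the box bound by NF-Y, its usual partner. The promoters, 250 bases before to 50 after each start, were from RefSeq (GRCm38.p6) and were found for 24 of the 31 genes. TCACNCCAC stood in 1.24% of 32851 promoters and in 1 member, Hmgcs1. CCAAT stood in 37.4% of all promoters and in 80.0% of the 20 promoters of 17 synthesis genes, of which 16 held it in at least 1 promoter, and in 5 of the 10 promoters of the other members. A match describes letters and is not evidence of binding. Only this exact form of the sterol element was searched, so a missing match does not show that a gene lacks one. Fdps, Fdft1, Sqle, Cyb5r3, Stard4, Npc1 and Abcg1 were not in the table. The 250 bases before the start are given for Hmgcs1 (chr13:119690101-119690350, plus strand), the 1 member searched that held TCACNCCAC. They are also given for Mvk (chr5:114444019-114444268, plus strand) and Tm7sf2 (chr19:6067851-6068100, minus strand), which had an unadjusted p under 0.05 in limma. The last is Lss (chr10:76531355-76531604, plus strand), with the largest difference. Capitals mark the motifs, with ATTGG being CCAAT on the other strand, and these 4 were chosen after their values were seen.
Hmgcs1: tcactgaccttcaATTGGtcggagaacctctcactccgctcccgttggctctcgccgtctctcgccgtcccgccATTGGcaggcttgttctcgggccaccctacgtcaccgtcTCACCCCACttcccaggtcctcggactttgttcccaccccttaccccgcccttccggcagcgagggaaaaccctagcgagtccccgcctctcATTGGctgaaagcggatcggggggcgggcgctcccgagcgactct
Mvk: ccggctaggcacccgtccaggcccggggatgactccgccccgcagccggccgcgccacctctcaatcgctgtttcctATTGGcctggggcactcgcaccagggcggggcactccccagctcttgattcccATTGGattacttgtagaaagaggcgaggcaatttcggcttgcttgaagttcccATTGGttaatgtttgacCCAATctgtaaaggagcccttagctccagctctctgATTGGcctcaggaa
Lss: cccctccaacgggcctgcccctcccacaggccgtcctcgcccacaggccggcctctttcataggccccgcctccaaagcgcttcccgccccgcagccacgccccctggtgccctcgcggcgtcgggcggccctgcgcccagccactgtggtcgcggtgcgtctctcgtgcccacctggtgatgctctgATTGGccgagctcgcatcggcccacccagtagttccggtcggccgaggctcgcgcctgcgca
Tm7sf2: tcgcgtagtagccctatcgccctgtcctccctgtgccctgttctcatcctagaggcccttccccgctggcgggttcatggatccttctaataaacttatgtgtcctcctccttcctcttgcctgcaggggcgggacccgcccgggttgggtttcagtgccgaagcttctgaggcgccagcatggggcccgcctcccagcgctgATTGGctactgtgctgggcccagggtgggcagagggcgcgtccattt
In Hmgcs1 the TCACNCCAC match begins 137 bases before the start and lies among 3 CCAAT boxes. Mvk holds 5 CCAAT boxes within the 250 bases, and Lss and Tm7sf2 hold 1 each, 62 and 47 bases before the start.

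The SREBP control genes had higher means in hNAG-1 for all 4, with a median log2 fold change of 0.23, and -0.01 with slide as a block. Insig1, itself a target of SREBP, had the largest difference, 0.77 ± 0.43 (SE), an adjusted p of 0.661 in limma. Insig1 measured 1332, 609, 1654 and 1496 in WT 1 to 4 and 2489.7, 3781, 1348, 2520.1 and 1074 in hNAG-1 1 to 5. As for the synthesis genes, WT 2 was lowest and hNAG-1 2 highest, and 3 of the 5 hNAG-1 mice were above every WT mouse. With slide as a block the difference was -0.09. Srebf2, which encodes SREBP-2, differed by 0.25 ± 0.23, Scap by 0.21 ± 0.20 and Insig2 by 0.03 ± 0.14. A dim Srebf2 probe, well above background on 6 of the 9 arrays, gave -1.17, while the 2 other Srebf2 probes gave 0.18 and 0.17.

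Of the 4 genes of uptake and transport, 3 had higher means in hNAG-1, with a median log2 fold change of 0.17, and 0.0640 with slide as a block. Stard4, which carries cholesterol between membranes, had the largest difference upward, 0.22 ± 0.17 (SE), an adjusted p of 0.661 in limma. The Stard4 intensities were 1967, 1637, 1683 and 1466 in WT 1 to 4 and 1975, 1633, 1797, 2646 and 1896 in hNAG-1 1 to 5, so the genotypes overlapped and hNAG-1 4 was the highest. Npc1 and Npc2, which release cholesterol from lysosomes, differed by 0.16 ± 0.15 and 0.18 ± 0.16.

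Soat1, which esterifies cholesterol for storage, had a lower mean, by -0.31 ± 0.24 (SE), an adjusted p of 0.661 in limma. Its scaled intensity was 1951, 1767, 2512 and 3096 in WT 1 to 4 and 1452, 1404, 2202, 1842 and 2499 in hNAG-1 1 to 5, with overlap, and the difference was 0.06 with slide as a block. The array files place this brightest probe on chromosome 7, whereas RefSeq has Soat1 on chromosome 1. The brightest Soat1 probe on chromosome 1 gave -0.40, and -0.26 with slide as a block, and had its highest value, 739, in WT 2. The same mismatch held for the brightest probes of Idi1 (2 in the files, 13 in RefSeq) and Hmgcs1 (unplaced, 13 in RefSeq) and for their other probes, which gave 0.54 for Idi1 and 0.58 for Hmgcs1, while another Hmgcs1 probe, well above background on 4 of the 9 arrays, gave 0.25.

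The 2 exporters had lower means in hNAG-1, with a median log2 fold change of -0.42, and WT 2 was the highest mouse for both. Abcg1, which exports cholesterol to lipoproteins, had a scaled intensity of 687, 2515, 653 and 564 in WT 1 to 4 and 575, 459, 634, 1203 and 441 in hNAG-1 1 to 5. WT 2 was more than any other mouse and the rest overlapped. The log2 fold change was -0.54 ± 0.47 (SE), an adjusted p of 0.697 in limma. It was -0.04 without WT 2 and -1.15 ± 0.85 with slide as a block. Abca1, which loads cholesterol onto apolipoprotein A-I, had a scaled intensity of 985, 2508, 1401 and 1587 in WT 1 to 4 and 1274, 1199, 1072, 1483 and 1200.5 in hNAG-1 1 to 5. WT 2 was again the highest and WT 1 the lowest. The log2 fold change was -0.31 ± 0.25, an adjusted p of 0.674 in limma. It was -0.07 without WT 2, -0.52 without WT 1 (unadjusted p of 0.0473 in limma) and -0.56 ± 0.37 with slide as a block.

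Values of other cell types moved with these genes. WT 2, lowest for synthesis, was the highest for lymphocyte markers (3.20) and for the exporters Abca1 and Abcg1 (1.34). It was the lowest for luminal epithelium (-0.68) and milk proteins (-0.47 over the 6 genes other than Wap, whose probe was saturated on 2 arrays). hNAG-1 2, highest for synthesis, was the lowest for lymphocyte markers (-1.40) but near the mean for luminal epithelium (0.00335) and those 6 milk proteins (-0.0130). The order was not the same throughout, since hNAG-1 4 had the second highest synthesis mean (0.32) with lymphocyte markers at 0.83. All 7 lymphocyte markers had a lower mean in hNAG-1, by a median of -1.17, and without WT 2 the median was -0.28, with 1 higher and 6 lower. All 6 adipocyte markers had a higher mean in hNAG-1, by a median of 0.47, with the lowest mean, -1.22, in WT 1, and without WT 1 the median was 0.0731, with 5 higher and 1 lower. The 3 macrophage markers averaged highest in hNAG-1 4 (1.20) and WT 2 (0.55) and lowest in WT 1 (-1.11). hNAG-1 4 and WT 2 were also the 2 mice highest for Abca1 and Abcg1 (0.43 and 1.34). The part of these cell types in the differences was not tested.

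**Figure D4:**
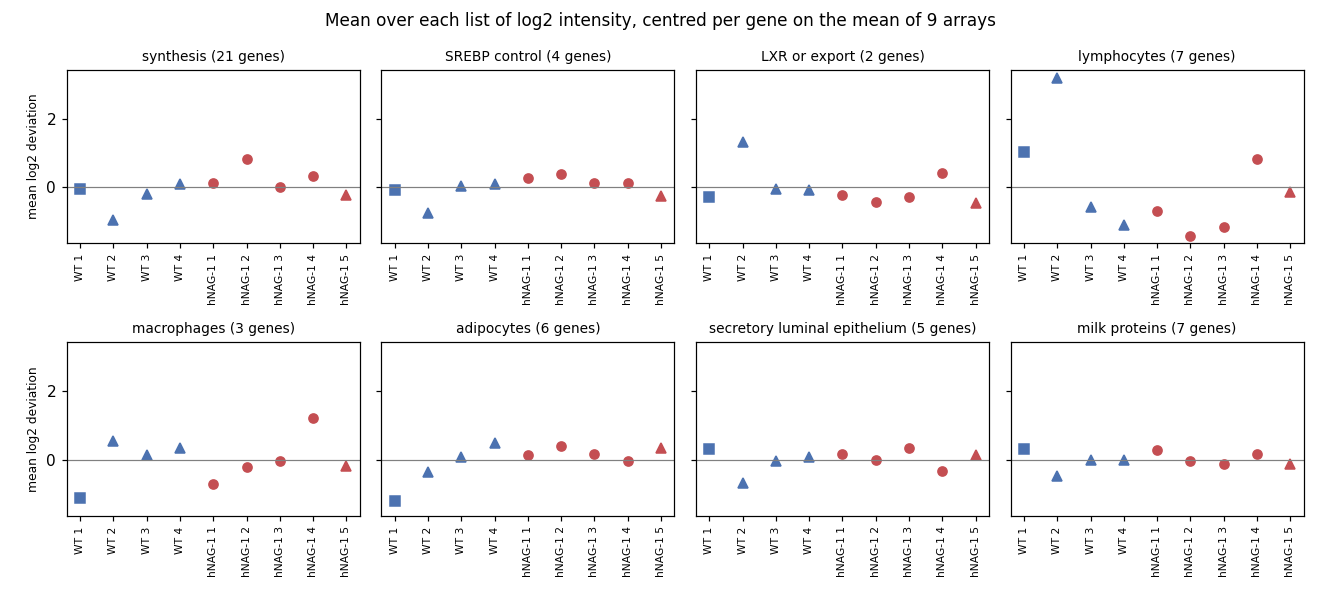
Mean over the genes of each list of the log2 intensity, centred for each gene on its mean over the 9 arrays, by array (milk proteins include Wap), with blue for WT and red for hNAG-1, and squares, circles and triangles for slides 1, 2 and 3. WT 2 is lowest for synthesis (-0.94) and highest for lymphocytes (3.20) and for the exporters Abca1 and Abcg1 (1.34).

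The 28 other genes of cholesterol handling, among them the LXR genes Nr1h2 and Nr1h3, the bile acid enzyme Cyp27a1, the lysosomal lipase Lipa and the SREBP proteases Mbtps1 and Mbtps2, were evenly split. Of these, 14 had higher and 14 lower means in hNAG-1, with a median log2 fold change of -0.01, and 0 had an unadjusted p under 0.05 in limma, where 5.60% of all probes did. Srebf1, which encodes SREBP-1 and is itself a known target of LXR, had the largest difference upward, 0.51 ± 0.33, and -0.16 with slide as a block. Unlike the 2 exporters, it was lowest in WT 2. Lcat, which esterifies cholesterol in plasma lipoproteins, had the largest downward, -0.86 ± 0.46, and -0.12 with the block, with its probe well above background on 4 WT arrays and 1 hNAG-1 array. With slide as a block, 1 of the 28 had an unadjusted p under 0.05, Soat2, named after its values were seen, whose probe was well above background on 0 arrays, and 7.61% of all probes passed.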

How the data were processed

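RNA was labelled with Cy3 and hybridized to Agilent Whole Mouse Genome arrays, and the authors read them with Agilent Feature Extraction version 9.5. The deposited intensity used is the processed signal, which that software had corrected for background, and the deposited series values equalled it. The methods name ANOVA with thresholds on p, fold and intensity, and no normalization. Here control spots were left out, spots of a probe averaged, and arrays scaled to a common 75th percentile over spots. In a first run the percentile was taken over averaged probes, and this was changed after its results had been seen, to match earlier processing of these data. That first scaling is kept among the alternatives. Values were compared on the log2 scale in R (version 4.3.3) by the lmFit and eBayes functions of limma (version 3.58.1), two-sided and with no covariate, with Benjamini-Hochberg adjustment over 41174 probes, and the code was tested on simulated data. Slide was taken from the scanner files. The brightest probe stands for a gene. Intensities in every mouse were given for genes with an unadjusted p under 0.05 or without overlap, and for the largest difference in each direction per role. The members and lists were chosen with earlier results of these data known. Of the 28 other genes, 5 were matched by accession, as were 4 milk protein genes. The labels give no litter for each dam, and p-values cover the spread between these mice. The number of arrays limits the precision. A comparison of slide 2 with WT 2 to 4 was also run and is not reported, since genotype and slide cannot be told apart in it.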

Additional observations from a re-analysis of the deposited data

Results flagged for a closer look

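In 4 of the 62 groups tested (31 genes in each genotype), 1 mouse lay far from the others of its genotype by Dixon's ratio, the gap to the nearest mouse over the range of the group, both on the log2 scale. Intensities below are linear. Chance gives about 1 in 20 groups. Pmvk was highest in hNAG-1 2, at 48299 against 24251 in the nearest mouse (ratio 0.899). Nsdhl was highest in hNAG-1 2, at 3169 against 1375 (ratio 0.716). Ebp was lowest in hNAG-1 1, at 41271 against 70391 (ratio 0.850). Abcg1 was highest in WT 2, at 2515 against 687 (ratio 0.869).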

How the results depend on the processing

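The count of probes with an unadjusted p under 0.05 was 2307, and 1058 with normexp background correction, 3686 with median scaling, 1475 with slide as a random block, 3134 with slide as a fixed block and 992 without WT 2 and hNAG-1 2. Of the probes called, 20.5% were higher in hNAG-1, against 52.6% with normexp, 57.5% with quantile normalization, 72.4% with median scaling, 2.86% without scaling and 90.8% with slide as a fixed block. The median of all probes moved from -0.02 to 0.20 with median scaling, to -0.16 without scaling and to 0.19 with slide as a fixed block. The number of members with an unadjusted p under 0.05 was 3, and 0 without scaling (2066 probes), with slide as a fixed block or without WT 2 and hNAG-1 2. It was 2 by the ANOVA of the methods and with slide as a random block, where Tm7sf2 was lost (p of 0.0676 and 0.0650). Fdps came under 0.05 with median scaling (0.83), and Fdps (0.45) and Cyb5r3 (0.43) with the mean over probes, where Fdft1 was lost (0.23). The synthesis median was 0.56, and 0.12 with slide as a fixed block and 0.10 without WT 2 and hNAG-1 2. Taking the 75th percentile over averaged probes, the first scaling, gave 2315 probes and a synthesis median of 0.57, with each member on the same side of its threshold.

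Leaving out 1 mouse gave 1163 (without hNAG-1 2) to 5924 (without hNAG-1 5) probes, 0 (without WT 2) to 5 (without hNAG-1 5) members and a synthesis median of 0.26 (without WT 2) to 0.72 (without WT 4). The count was 1 without WT 3 (1627 probes), hNAG-1 2 (1163 probes) or hNAG-1 4 (1574 probes). The unadjusted p rose above 0.05 for Mvk without WT 2 or WT 3, for Fdft1 without WT 1, WT 2, hNAG-1 2 or hNAG-1 4, and for Tm7sf2 without any 1 mouse other than WT 1 or hNAG-1 5. It came under 0.05 for Abca1 without WT 1 (-0.52), Lss without WT 4 (1.17), and Hmgcs1 (0.68) and Insig1 (1.00) without hNAG-1 5. The count of probes was 1509 without hNAG-1 3. Over these fits the log2 fold change changed sign for Ebp (-0.28 to 0.0425, higher without WT 1 or hNAG-1 1), Lbr (-0.0955 to 0.132, lower without WT 3, WT 4 or hNAG-1 1), Ggps1 (-0.0130 to 0.108, lower without WT 2) and Insig2 (-0.0682 to 0.0813, lower without WT 2).

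With slide as a fixed block, signs turned for Acat2 (-0.43), Hmgcs1 (-0.15), Mvd (-0.21), Sqle (-0.37), Sc4mol (-0.19), Hsd17b7 (-0.34), Ebp (0.12), Srebf2 (-0.31), Insig1 (-0.0933), Soat1 (0.0610) and Npc1 (-0.0339). They turned with quantile normalization for Lbr (-0.0186) and Insig2 (-0.0257), with median scaling for Ebp (0.0885), without scaling for Ggps1 (-0.0938), Lbr (-0.12) and Insig2 (-0.12), and with the mean over probes for Srebf2 (-0.15) and Insig2 (-0.000409). Without WT 2 and hNAG-1 2 they turned for Idi1 (-0.0226), Ggps1 (-0.0475), Sqle (-0.0407), Insig2 (-0.0627) and Abcg1 (0.0687). The causes were not tested.

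The replicate numbers of the labels did not pair mice, with correlations of deviations from -0.307 to 0.279 for equal numbers. The replicate block, which leaves out hNAG-1 5 in effect, gave 5447 probes, 1 member and a synthesis median of 0.68. Arrays without outlier flags and the filter on dim probes left every member on its side of the threshold.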
